A study of Mus musculus with 8 samples.

Results

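Complement and clotting proteins are made mostly by the liver and released into blood plasma. Their genes were examined here in livers of mice that had been given the carcinogen DMBA, a polycyclic aromatic hydrocarbon, as neonates. The genes were named by their place in complement activation, the terminal complement pathway, clotting, fibrinolysis and the inhibitors of these cascades, 43 in all. Of these, 39 had a probe in the array's gene table, which holds 19321 genes with a probe, and all 39 passed the filter on low values that 16799 genes passed. No probe in that table was assigned to C3, Cfd, Klkb1 or Cpb2, so these genes were not analysed here. Where a gene had more than 1 probe, the probe with the highest mean over all arrays was used.

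Total RNA of liver tissue was measured on 8 single-colour oligonucleotide arrays. All mice had received DMBA at an age of 4 to 5 days. They then ate normal diet (2 livers, mouse numbers 117 and 120) or high fat diet (3 livers, mouse numbers 117, 186 and 1) for 30 weeks, and each high fat diet liver gave 1 tumour and 1 non-tumour array. The number 117 on normal diet is not the animal numbered 117 on high fat diet. Strain and sex are not given in the sources used here. Every group carried DMBA, and no high fat diet liver without a tumour was among the samples, so diet and the presence of a tumour elsewhere in the liver cannot be told apart in the comparison of non-tumour tissue with normal diet liver.

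As background, complement is a cascade of plasma proteases that marks microbes and cell debris. Antibody complexes start its classical pathway through C1, C4 and C2, sugar-binding lectins such as the mannose-binding lectins start the lectin pathway through the MASP proteases, and factors B and D drive the alternative pathway. All of these meet at C3, after which C5 to C9 assemble a pore in the target membrane. Clotting runs through another chain of liver-made proteases to thrombin, which turns fibrinogen into fibrin, and plasmin later dissolves the fibrin. Each cascade is held in check by plasma inhibitors, many of them serpins, and several members are acute-phase proteins whose hepatocyte production rises in inflammation.

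Levels are given as the deposited intensity, a linear value scaled so that every array has a median of 25 over its listed probes. Values of a group are listed in the order of mouse numbers 117 and 120 for normal diet, and 117, 186 and 1 for both tissues of the high fat diet livers. Where arrays are said to lie above, below or among others, the order is that of the deposited intensity and is not a test. Fold changes are given as log2 differences ± SE from limma, fitted to quantile-normalized scanner signals of all 8 arrays with an offset of 50, which understates the changes of dim probes. A gene is said to have risen or fallen where its p-value, adjusted by Benjamini-Hochberg over all 16799 genes, was below 0.05. These p-values measure the spread among 2 or 3 livers per group. The 3 comparisons share arrays, so calls of a gene in several of them are not independent of each other.

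Between 81.8% and 88.5% of the 23473 probes were listed with a value on each array, and all 39 members were listed on all 8. Log2 values correlated at 0.984 to 0.996 between arrays of a group and at 0.919 to 0.983 between groups. The members are bright, and the fold changes of bright genes as a class depend on how arrays are scaled to each other. Among the 4612 tested genes at least as bright as the dimmest member (Cfp, mean 98.1), the median tumour-minus-non-tumour log2 fold change was -0.02 with quantile normalization and -0.18 on the deposited scale, which fixes only the median of an array. The corresponding medians were -0.01 and -0.17 for non-tumour tissue minus normal diet liver, and -0.02 and -0.34 for tumours minus normal diet liver. Each call was therefore repeated with the deposited values, with scaling to the same median, and with the same scaling applied before the offset was added. With the background read beside each spot subtracted in place of the blank spots, nearly all calls were lost, of members as of other genes. That reading rose with the spot itself, at a rank correlation of 0.902 to 0.96 within an array. Calls that held under all 4 scalings are described as made under all 4 scalings. For members, calls with quantile normalization that another scaling ended are named. Calls of members on the deposited scale but not with quantile normalization are named too. Those made only with scaling to the same median are counted below without being named.

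In tumours, the genes of kininogen, factor XI, antiplasmin, factor I, heparin cofactor II and the fibrinogen beta chain were higher than in the non-tumour tissue of the same livers, and those of the mannose-binding lectins, properdin and the pore proteins C6 and C9 were lower. Of the 39 measured members 14 rose and 5 fell, that is 35.9% and 12.8%, where 12% of all genes tested rose and 13.4% fell. Among the 4612 genes at least as bright as the dimmest member 20.4% rose and 23.2% fell (12.1% and 31.9% on the deposited scale). Of the 20 measured clotting members 11 rose and 0 fell, with a median log2 fold change of 0.46. Of the 19 measured complement members 3 rose and 5 fell, with a median of -0.05. All genes tested had a median of -0.01. With the deposited values the clotting members split into 5 that rose and 2 that fell, and the complement members into 1 and 7. The complement counts lie near the shares of the bright genes on both scales. Under all 4 scalings 6 members rose (Kng1, F11, Serpinf2, Cfi, Fgb and Serpind1, of which Cfi is a complement gene) and 5 fell (Mbl2, C6, Mbl1, C9 and Cfp, all complement genes). The sign of the fold change differed among scalings for 3 members, none of them called with quantile normalization.

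**Figure D1:**
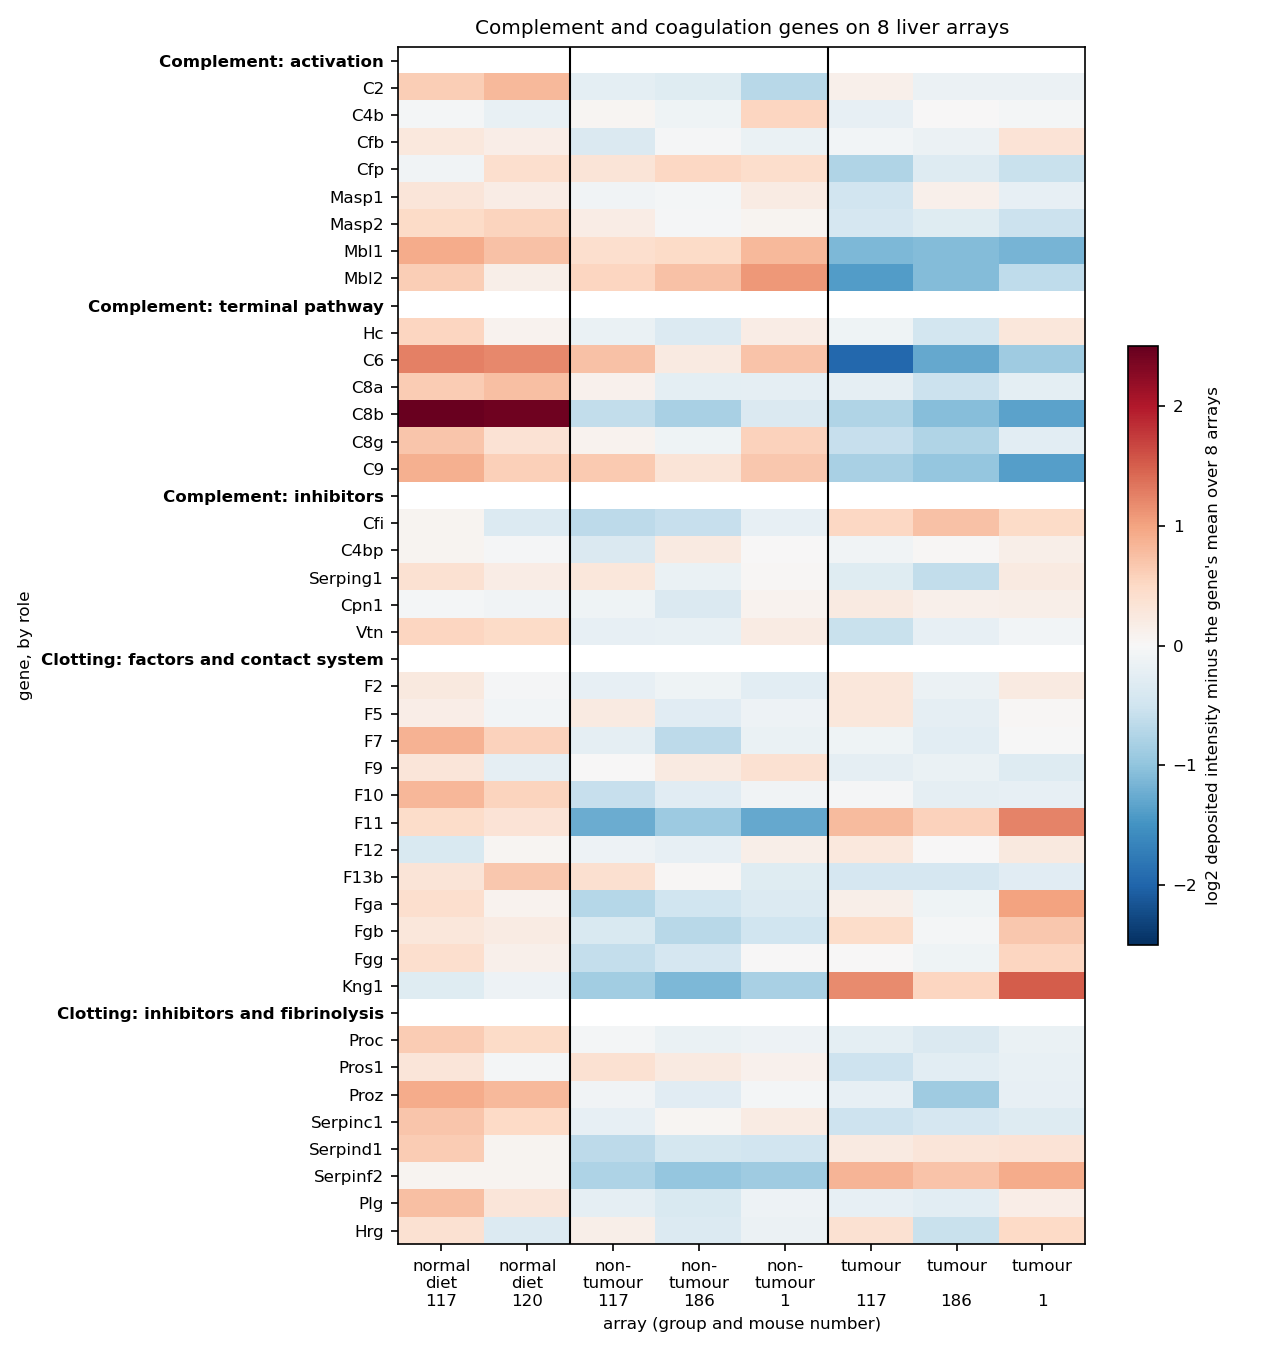
Heat map of the 39 measured members, grouped by role, on the 8 arrays. Colour shows log2 deposited intensity minus the gene's own mean over the 8 arrays, with red above and blue below that mean. C8b is high in both normal diet livers and low on the other 6 arrays, Mbl1, Mbl2, C6 and C9 are lowest in the tumours, and F11, Kng1 and Serpinf2 are highest there.

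Between non-tumour tissue and normal diet liver, 0 members rose and 6 fell, that is 0% and 15.4%, where 1.81% of all genes tested rose and 2.03% fell, and 3.97% and 3.23% of the bright genes. The 6 were C8b and C2 of complement and F11, F7, Serpinf2 and Proc of clotting. The median log2 fold change over the 39 members was -0.22 against -0.01 over all genes tested (-0.43 for the members on the deposited scale and 0.00 with scaling to the same median). Under all 4 scalings C8b, F11 and Serpinf2 fell. Leaving out either normal diet array left 1 member (C8b), and leaving out non-tumour 117 or non-tumour 1 left 3. On the deposited scale 13 members fell, where 10.1% of the bright genes did. Of all genes called in this comparison 47.1% were higher, a split that moved to 25.7% on the deposited scale, 77.2% with scaling to the same median and 22.4% with that scaling before the offset. The sign differed among scalings for 13 members.

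Between tumours and normal diet liver, 8 members rose and 11 fell, that is 20.5% and 28.2%, where 12.9% of all genes tested rose and 15% fell. Of the bright genes 21.2% rose and 22.9% fell, so the members' counts lie near that share. Under all 4 scalings Kng1, Serpinf2 and Cfi rose, and C8b, C6, Mbl1, C9, Mbl2, Proz, C8a, Masp2, Serpinc1 and Proc fell. On the deposited scale 3 members rose and 19 fell (10.3% and 43.7% of the bright genes did), and the sign differed among scalings for 9 members. Without normal diet array 117 the count was 7 that rose and 4 that fell, without normal diet array 120 it was 5 and 5, and without tumour array 186 it was 8 and 7. Of all genes called in this comparison 46.2% were higher, against 28.9% on the deposited scale and 27.3% with scaling to the same median before the offset. Over the 3 comparisons, 12 members were called in none, 13 in 1, 11 in 2 and 3 (F11, Serpinf2 and F7) in all 3.

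**Figure D2:**
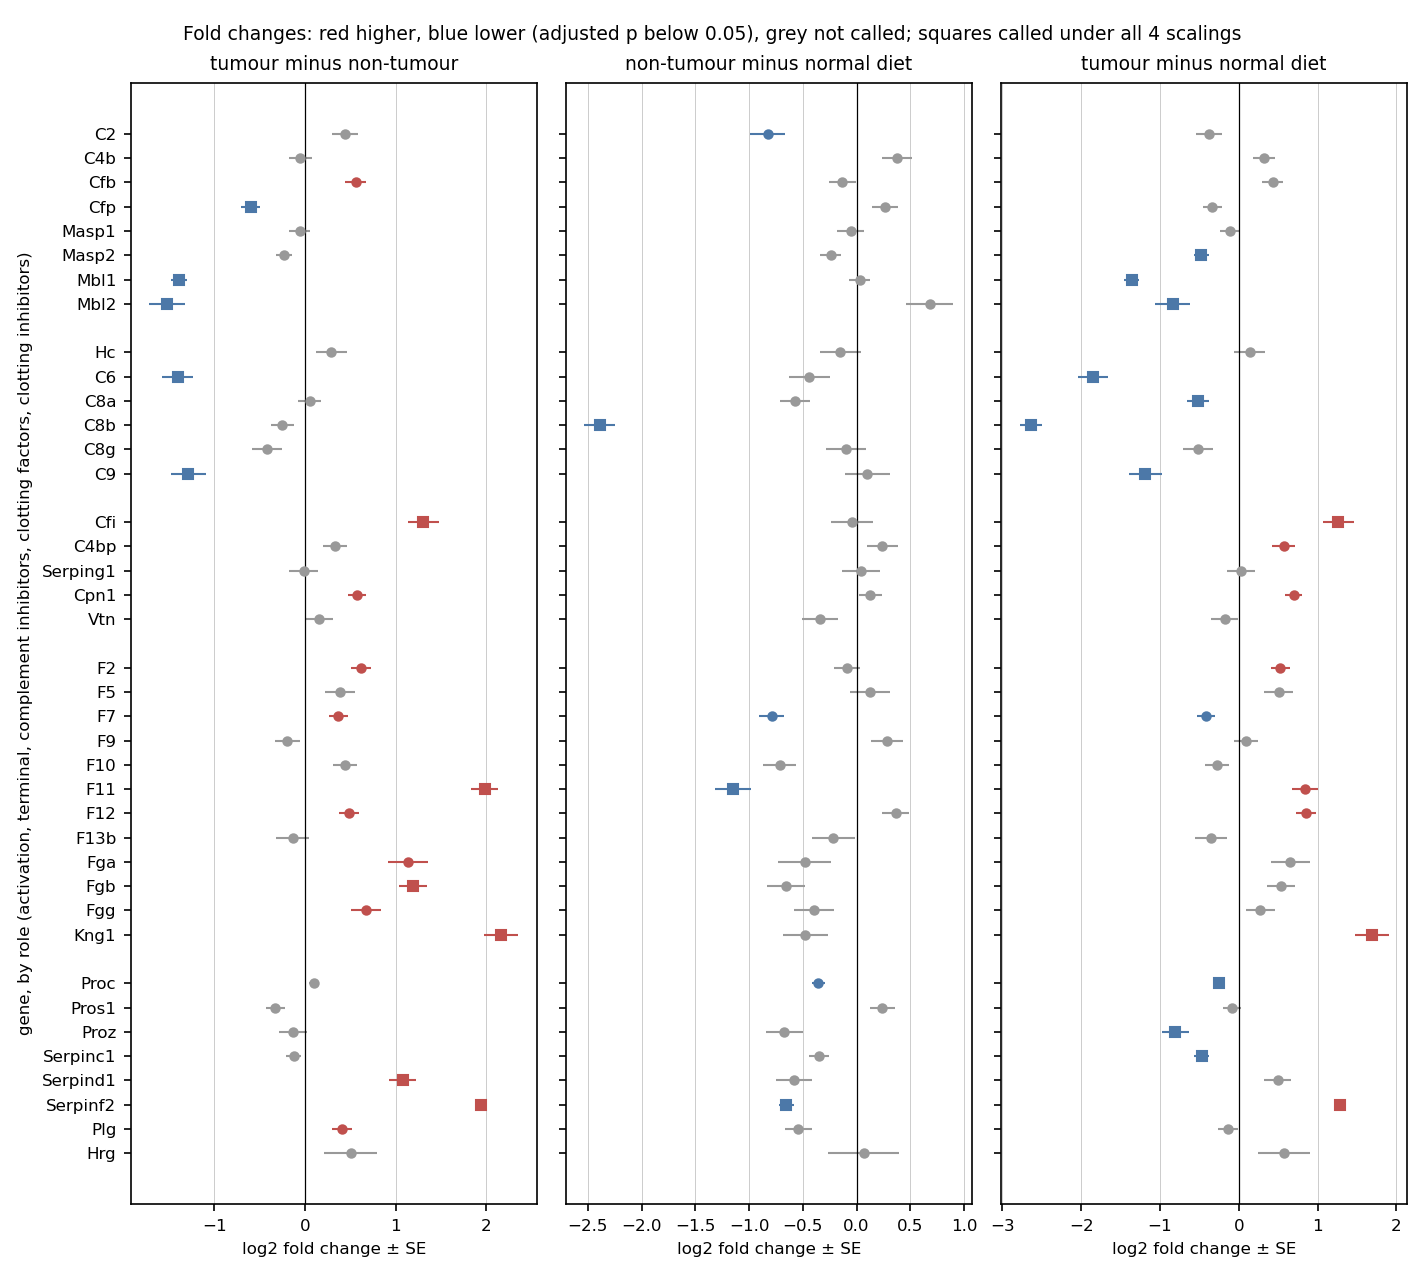
Log2 fold change ± SE of each measured member in the 3 comparisons, one panel each, with genes ordered by role. Red points rose and blue points fell at an adjusted p below 0.05, grey points did not pass, and squares mark calls made under all 4 scalings. In tumours minus non-tumour tissue the clotting members lie between -0.33 and 2.16 and the complement members between -1.52 and 1.31.

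Markers of the liver's cell types stand beside these results. Alb, the albumin gene of hepatocytes, was bright on every array and passed no test with quantile normalization (0.04 ± 0.04 in tumours minus non-tumour tissue, 0.10 ± 0.05 in non-tumour tissue minus normal diet liver). That normalization gives every array the same set of values, which limits the differences that the brightest genes can show. Of 13 measured hepatocyte markers 1 rose (Apoa1, 0.86 ± 0.12, adjusted p 0.00319) and 6 fell in tumours against non-tumour tissue. With mouse as a block 2 rose and 4 fell, since Cps1 (0.123) and Cyp2e1 (0.0695) were no longer called and Hnf4a was called higher (0.0133). On the deposited scale 8 of the 13 fell, where 31.9% of the bright genes did. The summed intensity of the hepatocyte markers on that scale was 207777 to 213864 in normal diet liver, 169841 to 180577 in non-tumour tissue and 137587 to 147225 in tumours. In non-tumour tissue against normal diet liver 0 of the 13 rose or fell (1 fell on the deposited scale). Among 8 measured cholangiocyte markers 1 rose and 1 fell in tumours (2 and 0 with mouse as a block), and the rise of Tspan8 took their summed intensity from 178 to 230.3 in non-tumour tissue to 2200.1 to 4867. Of endothelial markers 2 of 10 rose, of stellate cell markers 1 rose and 2 fell of 11, and of neutrophil markers 1 of 9 rose. Of all genes tested 12% rose and 13.4% fell, and of the bright genes 20.4% and 23.2%. The small counts of cholangiocyte, endothelial, stellate cell and neutrophil markers lie near those shares. The falls of hepatocyte markers, 46.2% of them, lie above both. Summed platelet markers lay at 98.8 to 143.5 on all arrays, with 0 of 8 called between these tissues. Of T and NK cell markers, summing to 34.4 to 59.6, and B cell markers, at 47.1 to 84.7, 0 were called. The part of any of these in the members' changes was not tested.

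The lectin pathway had the largest falls among the genes that start complement. Mbl1 and Mbl2 encode the mannose-binding lectins, which bind microbial sugars. Mbl1 was at 2254 and 1993 in normal diet liver, at 1602, 1660 and 2089 in non-tumour tissue and at 549, 559.6 and 533 in tumours. The 3 tumours lay within a narrow range below every other array. In tumours it fell from 1784 ± 266 in non-tumour tissue to 547 ± 13.4 (log2 difference -1.39 ± 0.09, adjusted p 0.00036), and it was also lower than in normal diet liver (-1.36 ± 0.10, adjusted p 0.000374). Mbl2 was at 3384 and 2429 in normal diet liver, at 3215, 3645 and 4652 in non-tumour tissue and at 832, 1037 and 1423 in tumours. Again every tumour lay below every other array. From non-tumour tissue to tumours Mbl2 fell (log2 difference -1.52 ± 0.20, adjusted p 0.0029), and its difference from normal diet liver (-0.84 ± 0.22, adjusted p 0.0324) was not called without normal diet array 117 (0.196), without tumour array 117 (0.0693) or 186 (0.0644), or without non-tumour array 186 (0.0551). Neither gene passed the test between non-tumour tissue and normal diet liver (0.03 ± 0.10, adjusted p 0.918 for Mbl1, 0.68 ± 0.22, adjusted p 0.153 for Mbl2). In bulk tissue, fewer cells of a type and less RNA per cell cannot be told apart, here and for every gene below.

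Masp2, the protease that the lectins activate, was at 864 and 914 in normal diet liver, at 704, 609 and 655 in non-tumour tissue and at 463, 502 and 431 in tumours. All tumours lay below all non-tumour arrays, and those below both normal diet arrays. From normal diet liver to non-tumour tissue Masp2 did not pass with quantile normalization (-0.24 ± 0.10, adjusted p 0.247) and fell on the deposited scale (-0.43, adjusted p 0.035). The fall from normal diet liver to tumours passed the test (log2 difference -0.48 ± 0.10, adjusted p 0.0147) but not without normal diet array 117 (0.0578) or 120 (0.0968). Between the tissues of the high fat diet livers Masp2 did not pass with quantile normalization (-0.24 ± 0.09, adjusted p 0.104) and fell on the deposited scale (-0.48, adjusted p 0.00428). Masp1, a related protease of the same pathway, passed no test, with fold changes of -0.06, -0.05 and -0.11 for tumours minus non-tumour tissue, non-tumour tissue minus normal diet liver and tumours minus normal diet liver.

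Cfp encodes properdin, which stabilizes the alternative pathway convertase and is made largely by myeloid cells. It was at 88.1 and 126 in normal diet liver, at 116, 134 and 126 in non-tumour tissue and at 55.7, 75.1 and 63.5 in tumours. Tumours lay below all other arrays, and normal diet and non-tumour arrays overlapped. Cfp fell in tumours against non-tumour tissue (log2 difference -0.60 ± 0.11, adjusted p 0.00859) under all 4 scalings. Against normal diet liver the tumours did not pass with quantile normalization (-0.34 ± 0.12, adjusted p 0.0805), and Cfp was lower there on the deposited scale (-0.596, adjusted p 0.019). Markers of Kupffer cells and macrophages are given beside it. Of 13 measured markers 3 (Clec4f, Vsig4 and Cd5l) fell in tumours and 0 rose. The falls are 23.1% of the markers, where 13.4% of all genes tested and 23.2% of the bright genes fell. With mouse as a block Clec4f was not called (0.0631) and C1qa was called lower (0.0294). The summed intensity of the 13 markers was 3222 to 3687 in non-tumour tissue, 1699.9 to 2522 in tumours and 2004 to 2739 in normal diet liver. All 13 were listed on every array, 3 of them (Vsig4, C1qa and C1qb) are complement genes as well, and their part in the fall of Cfp was not tested.

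Cfb, the protease of the alternative pathway convertase and an acute-phase gene, was at 8496 and 7937 in normal diet liver, at 5521, 6998 and 6337 in non-tumour tissue and at 6792, 6418 and 9035 in tumours. Tumour and non-tumour arrays overlapped, and in mouse 186 the tumour was the lower of the pair on the deposited scale. With quantile normalization Cfb rose in tumours (log2 difference 0.56 ± 0.12, adjusted p 0.0149), a call that was not made with mouse as a block (adjusted p 0.0632), on the deposited scale (0.23, adjusted p 0.312), or without non-tumour array 117 (0.0534) or 1 (0.0565). C2, the protease that joins C4 in the classical and lectin convertase, was at 452 and 523 in normal diet liver, at 250.2, 240.4 and 183 in non-tumour tissue and at 322, 268 and 266 in tumours. Both normal diet arrays lay above all others. The fall from normal diet liver to non-tumour tissue just passed (log2 difference -0.83 ± 0.16, adjusted p 0.0481) and was not called when any 1 of the 8 arrays was left out (adjusted p 0.0529 to 0.25). Nor was it called with scaling to the same median (-0.60, adjusted p 0.0653). In tumours minus non-tumour tissue C2 was not called (0.45 ± 0.15, adjusted p 0.0693), but the fit with mouse as a block called it (0.0387). In tumours minus normal diet liver C2 did not pass with quantile normalization (-0.38 ± 0.16, adjusted p 0.134) and fell on the deposited scale (-0.74, adjusted p 0.00689). C4b, which encodes complement component C4, passed no test with quantile normalization, with fold changes of -0.05, 0.38 and 0.33 in the same order of comparisons.

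In the terminal pathway, whose proteins form the membrane pore, 2 of 6 members fell in tumours against non-tumour tissue (C6 and C9), 1 fell in non-tumour tissue against normal diet liver (C8b), 4 fell in tumours against normal diet liver (C8b, C6, C9 and C8a), and 0 rose. The falls are 33.3%, 16.7% and 66.7% of the 6. Of all genes tested 13.4%, 2.03% and 15% fell in the same order, and of the bright genes 23.2%, 3.23% and 22.9%. C8b had the largest fold change of any member in any comparison. The gene encodes the beta chain of C8, which docks onto the forming pore. C8b was at 945 and 918 in normal diet liver, at 111, 96.9 and 131 in non-tumour tissue and at 100.2, 81.5 and 67.4 in tumours. Both normal diet arrays lay far above the other 6. It fell from 931 ± 19.0 to 113 ± 17.3 in non-tumour tissue (log2 difference -2.39 ± 0.14, adjusted p 0.00136) and to 83.0 ± 16.5 in tumours (-2.64 ± 0.14, adjusted p 0.000176), and both calls were made under every alternative tried, leaving out each array and subtracting the local background included. Tumours and non-tumour tissue overlapped and did not pass the test (-0.25 ± 0.13, adjusted p 0.215), though without tumour array 117 the difference was called (-0.39, adjusted p 0.0323). Sex was checked after these values had been seen, since the labels do not give it. The Y-linked gene Eif2s3y was at 149 to 283 and Xist, which marks the inactive X chromosome, at 12.4 to 16.7 on the 8 arrays, and the diets overlapped in both.

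C8a, the alpha chain of the same protein, neighbours C8b on the chromosome. It was at 1147 and 1244 in normal diet liver, at 799.9, 619 and 629 in non-tumour tissue and at 630.1, 508 and 621 in tumours. Both normal diet arrays lay above the other 6, and tumour and non-tumour arrays overlapped, as for C8b, but the steps were smaller. C8a fell in tumours against normal diet liver (log2 difference -0.52 ± 0.14, adjusted p 0.0338) under all 4 scalings, though the call was lost on leaving out normal diet 117 (0.0981), normal diet 120 (0.171), tumour 186 (0.0736), tumour 1 (0.0702) or non-tumour 186 (0.0522). Against normal diet liver the non-tumour tissue did not pass with quantile normalization (-0.57 ± 0.14, adjusted p 0.0802) and was lower on the deposited scale (-0.80, adjusted p 0.0191). C8g, the gamma chain, which lies on another chromosome, was at 9116 and 7229.7 in normal diet liver, at 5988, 5229 and 8368 in non-tumour tissue and at 3805, 3340.1 and 4721 in tumours. In each of the 3 mice its tumour lay below its non-tumour tissue on the deposited scale, where it fell (-0.71, adjusted p 0.0367). With quantile normalization it did not pass (-0.42 ± 0.17, adjusted p 0.122), and with mouse as a block it did (0.026). In tumours against normal diet liver C8g did not pass with quantile normalization (-0.52 ± 0.19, adjusted p 0.0867) and fell on the deposited scale (-1.05, adjusted p 0.0094).

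The promoters of C8a and C8b are shown because the genes are neighbours, code for chains of 1 protein and were both lower in tumours than in normal diet liver. The sequences are the 250 bases before the RefSeq start site in GRCm38.p6, 5' to 3', at chr4:104876399-104876648 on the minus strand for C8a and chr4:104766067-104766316 on the plus strand for C8b. Capitals mark matches on either strand to GTTAAT, the half-site of the hepatocyte factors of the HNF1 family, and to TTCNNNGAA, the core of STAT3 sites.
C8a: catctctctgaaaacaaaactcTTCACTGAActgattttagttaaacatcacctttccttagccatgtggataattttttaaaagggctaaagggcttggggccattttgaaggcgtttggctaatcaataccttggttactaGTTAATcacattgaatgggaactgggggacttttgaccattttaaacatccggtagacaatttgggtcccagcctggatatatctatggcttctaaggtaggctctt
C8b: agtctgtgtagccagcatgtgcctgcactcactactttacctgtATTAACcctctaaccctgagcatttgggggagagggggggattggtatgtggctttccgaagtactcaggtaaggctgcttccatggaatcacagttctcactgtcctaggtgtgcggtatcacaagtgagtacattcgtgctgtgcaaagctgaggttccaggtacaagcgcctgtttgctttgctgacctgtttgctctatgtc
C8a holds 1 match to each, and C8b holds 1 match to the HNF1 half-site. A match describes the letters and is not evidence of binding.

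C6 and C9 encode the other pore proteins. C6 was at 501 and 483 in normal diet liver, at 345, 244 and 344 in non-tumour tissue and at 53.3, 86.1 and 113 in tumours. Each tumour lay below each non-tumour array, and both normal diet arrays lay above all others. The difference between non-tumour tissue and normal diet liver did not pass the test (-0.44 ± 0.19, adjusted p 0.267). C6 fell from 311 ± 58.1 to 84.0 ± 29.8 in tumours (log2 difference -1.40 ± 0.17, adjusted p 0.0023), and against normal diet liver the fold change was -1.85 ± 0.19, adjusted p 0.00128. C9, which polymerizes into the wall of the pore, was at 3256 and 2682 in normal diet liver, at 2774, 2198 and 2832 in non-tumour tissue and at 1010.4, 902 and 681 in tumours. Its tumours lay below every other array, while normal diet and non-tumour arrays overlapped. C9 fell from 2601 ± 351 to 865 ± 168 (log2 difference -1.29 ± 0.19, adjusted p 0.0045). Its fall against normal diet liver (-1.19 ± 0.21, adjusted p 0.00843) was not called without normal diet array 117 (0.0667). Hc, the mouse gene of C5, lay between 1127 and 2239 on the 8 arrays and passed no test among groups (0.29 ± 0.17, adjusted p 0.285 in tumours minus non-tumour tissue), though with mouse as a block it was called higher in tumours (0.0252).

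Among the 5 complement inhibitors and regulators, 2 rose in tumours against non-tumour tissue and 0 fell. That is 40% and 0%, where 12% of all genes tested rose and 13.4% fell, and 20.4% and 23.2% of the bright genes. Cfi encodes factor I, the protease that inactivates C3b and C4b. It was at 3118 and 2344 in normal diet liver, at 1898, 1988 and 2586 in non-tumour tissue and at 4251, 4954 and 4166 in tumours. All tumours lay above all other arrays, and non-tumour and normal diet arrays overlapped. Cfi rose from 2157 ± 374 to 4457 ± 433 (log2 difference 1.31 ± 0.17, adjusted p 0.00318) and was higher than in normal diet liver too (1.27 ± 0.19, adjusted p 0.00479), both under all 4 scalings. Cpn1, the catalytic chain of carboxypeptidase N, which trims the C3a and C5a peptides, was at 1095 and 1069.7 in normal diet liver, at 1059, 883 and 1198 in non-tumour tissue and at 1328, 1243 and 1263 in tumours. The tumours lay above the non-tumour arrays by a small margin. Cpn1 rose with quantile normalization (log2 difference 0.57 ± 0.10, adjusted p 0.00743), but not on the deposited scale (0.29, adjusted p 0.085) or with mouse as a block (0.0508). Against normal diet liver Cpn1 (0.70 ± 0.11, adjusted p 0.00495) also rose with quantile normalization and not on the deposited scale (0.24, adjusted p 0.176).

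C4bp, whose product is a cofactor of factor I for C4b, was at 4372 and 4054 in normal diet liver, at 3219.9, 4832 and 4188 in non-tumour tissue and at 3936, 4274 and 4634 in tumours. The 3 groups overlapped. It rose in tumours against normal diet liver with quantile normalization (log2 difference 0.57 ± 0.15, adjusted p 0.0298), but on the deposited scale the fold change was 0.02, adjusted p 0.939, and leaving out any array but non-tumour 117 or 186 ended the call (adjusted p 0.0509 to 0.142). Serping1, the C1 inhibitor that also restrains the contact system, and Vtn, vitronectin, which keeps the pore complex out of membranes, passed no test. Their tumour-minus-non-tumour fold changes were -0.01 ± 0.16 and 0.16 ± 0.15. On the deposited scale Vtn was lower in tumours than in normal diet liver (-0.79, adjusted p 0.0108).

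Among the clotting factors and the contact system, 8 of 12 measured members rose in tumours against non-tumour tissue, 0 fell, and 3 of the rises (Kng1, F11 and Fgb) were made under all 4 scalings. The rises are 66.7% of the 12, where 12% of all genes tested and 20.4% of the bright genes rose. Kng1, the kininogen that carries bradykinin and binds factor XI, had the largest rise of any member. It was at 737 and 831 in normal diet liver, at 499, 419 and 520.1 in non-tumour tissue and at 2055, 1317 and 2596 in tumours. Tumours lay above all other arrays, normal diet livers came next, and non-tumour arrays lay below both. The difference between non-tumour tissue and normal diet liver did not pass the test (-0.48 ± 0.21, adjusted p 0.282). Kng1 rose from 479 ± 53.6 to 1989 ± 642 (log2 difference 2.16 ± 0.19, adjusted p 0.000829), by 3.15-fold to 4.99-fold within a mouse on the deposited scale, and against normal diet liver by 1.69 ± 0.21, adjusted p 0.00244. The neighbouring and closely related kininogen gene Kng2 rose too (1.62 ± 0.13, adjusted p 0.000686). The 2 genes are near copies, so a probe of 1 may read RNA of the other.

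F11 encodes factor XI, a protease of the contact pathway that activates factor IX. It was at 552 and 506 in normal diet liver, at 170.2, 213 and 166 in non-tumour tissue and at 690.2, 596 and 949 in tumours. The groups did not overlap, with non-tumour tissue lowest, normal diet liver between and tumours highest. F11 rose from 183 ± 26.1 to 745 ± 183 in tumours against non-tumour tissue (log2 difference 1.99 ± 0.15, adjusted p 0.000572) and fell from 529 ± 32.5 in normal diet liver to that non-tumour level (-1.15 ± 0.17, adjusted p 0.0204). The fall was made under all 4 scalings but was lost on leaving out normal diet 117 (0.126), normal diet 120 (0.119), non-tumour 117 (0.0686) or non-tumour 1 (0.0543). Against normal diet liver the tumours rose with quantile normalization (0.84 ± 0.17, adjusted p 0.0123) but not on the deposited scale (0.46, adjusted p 0.108), nor without normal diet array 117 (0.064) or 120 (0.0768).

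Fibrinogen, the clot-forming protein and an acute-phase protein, is built from the products of Fga, Fgb and Fgg, which lie close together on chromosome 3. Fgb was at 23978 and 22665 in normal diet liver, at 15006, 12177 and 13962 in non-tumour tissue and at 26969, 18889.9 and 31367 in tumours. Every tumour lay above every non-tumour array, and the normal diet arrays lay within the range of the tumours. Fgb rose from 13715 ± 1431 to 25742 ± 6328 (log2 difference 1.19 ± 0.16, adjusted p 0.00297) under all 4 scalings. Fga was at 3779 and 3017 in normal diet liver, at 1732, 1998 and 2235 in non-tumour tissue and at 3145, 2622 and 5654 in tumours. The tumours lay above the non-tumour arrays, with tumour 1 the highest of all. Fga rose with quantile normalization (log2 difference 1.14 ± 0.22, adjusted p 0.0118), while on the deposited scale it came to 0.86, adjusted p 0.0521. A second, dimmer probe of Fga gave 0.91 in the same direction. Fgg was at 26709 and 21978 in normal diet liver, at 13341, 15053 and 20261 in non-tumour tissue and at 20212, 18755 and 29066 in tumours. Non-tumour array 1 lay among the tumours. Fgg rose with quantile normalization (log2 difference 0.67 ± 0.17, adjusted p 0.0288) and with mouse as a block (0.0099), but not on the deposited scale (0.48, adjusted p 0.142) nor when any of 5 arrays was left out (adjusted p 0.0512 to 0.08). In each of the 3 mice the tumour was above its non-tumour tissue for all of Fga, Fgb and Fgg on the deposited scale, by 1.25-fold to 2.53-fold. Against normal diet liver none of them passed the test in either tissue.

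The promoters of the fibrinogen genes are shown because these genes code for 1 protein and each was higher in the tumour than in the other tissue of the same liver. They are the 250 bases before the RefSeq start in GRCm38.p6, 5' to 3', at chr3:83025903-83026152 on the plus strand for Fga, chr3:83049864-83050113 on the minus strand for Fgb and chr3:83007474-83007723 on the plus strand for Fgg, with capitals as above.
Fga: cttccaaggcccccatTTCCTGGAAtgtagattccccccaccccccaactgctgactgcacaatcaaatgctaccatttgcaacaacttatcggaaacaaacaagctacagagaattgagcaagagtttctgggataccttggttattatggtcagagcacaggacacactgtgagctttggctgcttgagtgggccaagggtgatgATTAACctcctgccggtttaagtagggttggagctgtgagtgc
Fgb: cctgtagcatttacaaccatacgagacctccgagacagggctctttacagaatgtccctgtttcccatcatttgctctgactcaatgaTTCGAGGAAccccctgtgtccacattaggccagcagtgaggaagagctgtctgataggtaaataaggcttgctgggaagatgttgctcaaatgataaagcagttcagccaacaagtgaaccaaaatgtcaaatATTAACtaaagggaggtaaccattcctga
Fgg: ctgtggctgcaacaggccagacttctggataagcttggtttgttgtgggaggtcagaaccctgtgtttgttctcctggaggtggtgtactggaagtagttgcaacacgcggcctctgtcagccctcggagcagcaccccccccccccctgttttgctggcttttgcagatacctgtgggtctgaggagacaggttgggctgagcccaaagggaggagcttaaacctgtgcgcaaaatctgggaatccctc
Fga and Fgb each hold 1 HNF1 half-site and 1 STAT3 core, and Fgg holds no match in this window. RefSeq windows were found for 30 of the 39 measured members. The search covered the 250 bases before the start in members and in all windows alike. In them, 11 of these 30 (36.7%) held GTTAAT on either strand, against 6.43% of all 32851 windows, and 6 of 30 (20%) held TTCNNNGAA, against 7.02%. The units differ, since a member was counted once if any of its windows matched, while the other share counts the windows of 27025 genes singly. Of the members that rose in tumours against non-tumour tissue 3 of 10 with a window held GTTAAT, and of those that fell 1 of 5. The full HNF1 palindrome (0.00913% of windows), the C/EBP palindrome TTGCGCAA (0.164%) and the HNF4 motif CAAAGTCCA (0.384%) matched 0 of the 30. The half-site is part of the full HNF1 palindrome, and all these counts are descriptions.

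F12, factor XII, which starts the contact pathway, was at 1868 and 2488 in normal diet liver, at 2205, 2087 and 2678 in non-tumour tissue and at 2897, 2447 and 2878 in tumours. Non-tumour array 1 lay among the tumours. F12 rose with quantile normalization in tumours against non-tumour tissue (log2 difference 0.49 ± 0.11, adjusted p 0.0224) and against normal diet liver (0.85 ± 0.13, adjusted p 0.00419), but on the deposited scale neither was called (0.24, adjusted p 0.272, and 0.34, adjusted p 0.14). The first was also lost without non-tumour array 117 (0.0693) or 186 (0.069) or tumour array 117 (0.0733). F2, prothrombin, rose with quantile normalization in tumours against both other groups (0.62 ± 0.11, adjusted p 0.00843 against non-tumour tissue, 0.53 ± 0.12, adjusted p 0.0212 against normal diet liver), and on the deposited scale against neither (0.32, adjusted p 0.115, and 0.01, adjusted p 0.951). Its second call was also lost without normal diet array 120 (0.129).

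F7, F10 and Proz are neighbours on chromosome 8 and encode the vitamin K-dependent factor VII, factor X and protein Z, an inhibitory cofactor. F7 was at 834 and 683 in normal diet liver, at 392, 292 and 406 in non-tumour tissue and at 425, 381 and 454 in tumours. Normal diet arrays lay above all others, and the tumours overlapped the non-tumour arrays. F7 fell in non-tumour tissue against normal diet liver (log2 difference -0.79 ± 0.12, adjusted p 0.0216) and in tumours against normal diet liver (-0.42 ± 0.12, adjusted p 0.0382). With scaling to the same median neither was called (-0.58, adjusted p 0.056, and -0.35, adjusted p 0.0962). The first was also lost with only the groups compared (0.0505). Without normal diet array 117 neither was called (0.134 and 0.218), nor without normal diet array 120 (0.0842 and 0.0689), and over all arrays whose removal ended a call the adjusted p reached 0.0524 to 0.134 and 0.0514 to 0.218. Its small rise in tumours against non-tumour tissue (0.37 ± 0.10, adjusted p 0.0436) was not made on the deposited scale (0.21, adjusted p 0.348) and ended when any 1 of the 8 arrays was left out (0.0536 to 0.117).

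F10 was at 2700.3 and 2238 in normal diet liver and at 1016 to 1476 on the other 6 arrays, without passing the test with quantile normalization (-0.72 ± 0.15, adjusted p 0.0562 in non-tumour tissue minus normal diet liver), and it fell on the deposited scale (adjusted p 0.0116). In tumours minus normal diet liver F10 did not pass either (-0.28 ± 0.15, adjusted p 0.224), and it fell on the deposited scale (-0.85, adjusted p 0.0042). Proz was at 345 and 319 in normal diet liver, at 172, 149 and 175 in non-tumour tissue and at 159, 97.9 and 159 in tumours. Here too both normal diet arrays lay above the other 6. Proz fell in tumours against normal diet liver (log2 difference -0.81 ± 0.17, adjusted p 0.0153) under all 4 scalings. It was not called there without normal diet array 117 (-0.779) or 120 (-0.835). The step to non-tumour tissue did not pass with quantile normalization (-0.67 ± 0.17, adjusted p 0.0895), and Proz fell there on the deposited scale (-0.94, adjusted p 0.0298). F5, F9 and F13b, which encode factor V, factor IX and the carrier chain of factor XIII, passed no test among groups with quantile normalization and 1 probe per gene. Their tumour-minus-non-tumour fold changes were 0.38 ± 0.17, -0.19 ± 0.13 and -0.14 ± 0.18. F5 was called higher with mouse as a block (0.0145). A second, dimmer probe of F5 gave 0.40 in the same direction, and the mean of its probes was called higher in tumours against both other groups. On the deposited scale F13b was lower in tumours than in normal diet liver (-0.855, adjusted p 0.0115).

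Of the 8 measured inhibitors of clotting and genes of fibrinolysis, 3 rose in tumours against non-tumour tissue (Serpinf2, Serpind1 and Plg) and 0 fell, while 3 fell in tumours against normal diet liver (Proz, Serpinc1 and Proc) and 1 rose (Serpinf2). That is 37.5% that rose in the first, where 12% of all genes tested and 20.4% of the bright genes rose. In the second 12.5% rose and 37.5% fell, against 12.9% and 15% of all genes tested and 21.2% and 22.9% of the bright genes. Serpinf2 encodes alpha-2-antiplasmin, the main inhibitor of plasmin. It was at 2361 and 2366 in normal diet liver, at 1319.8, 1147 and 1219 in non-tumour tissue and at 4071, 3697 and 4291 in tumours. The groups were far apart with little spread, non-tumour tissue lowest, normal diet liver between and tumours highest. Serpinf2 rose from 1229 ± 86.8 to 4019.8 ± 300.3 in tumours (log2 difference 1.94 ± 0.06, adjusted p 5.09e-05), the smallest p-value of any member, and it was the one call between these tissues also made with the local background subtracted. It fell in non-tumour tissue against normal diet liver (-0.65 ± 0.07, adjusted p 0.00758), though not without normal diet array 117 (0.0571) or 120 (0.071), and rose in tumours against normal diet liver (1.29 ± 0.07, adjusted p 0.000158). All 3 calls were made under all 4 scalings.

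Serpind1, heparin cofactor II, a serpin that inhibits thrombin, was at 3280 and 2220.1 in normal diet liver, at 1334, 1562 and 1509 in non-tumour tissue and at 2448, 2598 and 2651 in tumours. Tumours lay above non-tumour arrays, and the normal diet arrays lay on either side of the tumours. From normal diet liver to non-tumour tissue Serpind1 did not pass with quantile normalization (-0.59 ± 0.17, adjusted p 0.12) and fell on the deposited scale (-0.87, adjusted p 0.0215). In tumours against non-tumour tissue Serpind1 rose from 1469 ± 119 to 2566 ± 105 (log2 difference 1.08 ± 0.15, adjusted p 0.00364) under all 4 scalings. Serpinc1, antithrombin, the serpin that inhibits thrombin and factor X, went the other way. It was at 8443 and 7364 in normal diet liver, at 4563, 5388 and 6045 in non-tumour tissue and at 3660.5, 3925 and 4208 in tumours. Tumours lay below non-tumour arrays, and those below the normal diet arrays. From normal diet liver to non-tumour tissue Serpinc1 did not pass with quantile normalization (-0.35 ± 0.09, adjusted p 0.104) and fell on the deposited scale (-0.57, adjusted p 0.0425). Serpinc1 fell in tumours against normal diet liver (log2 difference -0.47 ± 0.09, adjusted p 0.0125) under all 4 scalings, but not without normal diet array 117 (0.0951) or 120 (0.0512). Against non-tumour tissue it did not pass with quantile normalization (-0.13 ± 0.08, adjusted p 0.347) and fell on the deposited scale (-0.43, adjusted p 0.0296).

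Proc, the precursor of the anticoagulant protease protein C, was at 4479 and 4005 in normal diet liver, at 2779, 2547 and 2632 in non-tumour tissue and at 2417, 2235 and 2564 in tumours. Normal diet arrays lay above all others. Proc fell by a small step in non-tumour tissue (log2 difference -0.36 ± 0.06, adjusted p 0.0324) and in tumours (-0.25 ± 0.06, adjusted p 0.0232) against normal diet liver, the second under all 4 scalings and the first not with scaling to the same median (-0.23, adjusted p 0.145). Leaving out single arrays ended the first call in 5 cases (adjusted p 0.0523 to 0.197, among them normal diet 117, 120, non-tumour 186, 1 and tumour 117) and the second in 4 cases (0.0522 to 0.16, normal diet 117, 120 and tumour 186, 1). Pros1, the cofactor protein S, did not pass in tumours against non-tumour tissue with quantile normalization (-0.33 ± 0.10, adjusted p 0.0625) and fell on the deposited scale (-0.54, adjusted p 0.0148). Against normal diet liver the tumours did not pass either (-0.09 ± 0.12, adjusted p 0.623), and Pros1 was lower there on the deposited scale (-0.44, adjusted p 0.0421).

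Plg, plasminogen, the precursor of plasmin, was at 7032 and 5189 in normal diet liver, at 3588, 3204 and 3829 in non-tumour tissue and at 3645, 3488 and 4676 in tumours. Tumours and non-tumour arrays overlapped, and both normal diet arrays lay above all 6. With quantile normalization Plg did not pass against normal diet liver in non-tumour tissue (-0.54 ± 0.13, adjusted p 0.0746) or tumours (-0.13 ± 0.13, adjusted p 0.487). On the deposited scale it was lower in both (-0.77, adjusted p 0.0398, and -0.63, adjusted p 0.025). The rise in tumours against non-tumour tissue just passed (log2 difference 0.41 ± 0.11, adjusted p 0.0422) but was not made on the deposited scale (0.14, adjusted p 0.576) or when any 1 of the 6 high fat diet arrays was left out (0.0601 to 0.123). Hrg, a histidine-rich glycoprotein that binds plasminogen and heparin, varied within every group, from 927 to 1925 over the 8 arrays, and passed no test (0.50 ± 0.30, adjusted p 0.28 in tumours minus non-tumour tissue).

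**Figure D3:**
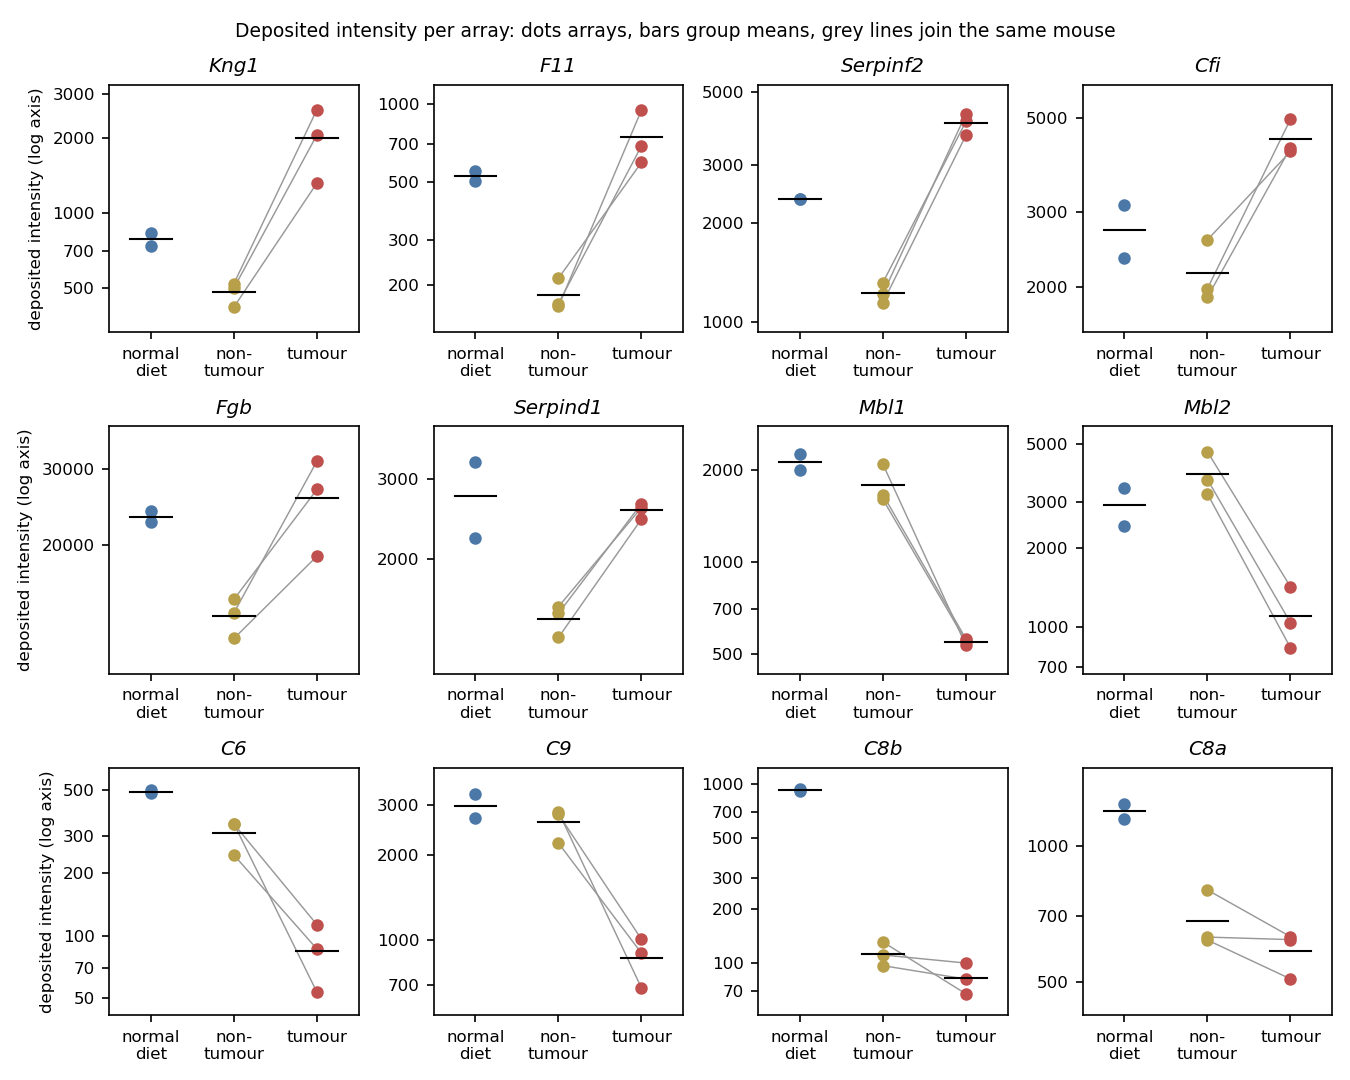
Deposited intensity of 12 members on each array (log axis, a separate scale per gene), with a dot per array, a bar at the group mean and grey lines joining tumour and non-tumour tissue of 1 liver. Kng1, F11, Serpinf2, Cfi, Fgb and Serpind1 go up and Mbl1, Mbl2, C6 and C9 go down in each of the 3 livers. C8b falls between diets, from 931 ± 19.0 to 113 ± 17.3, and C8a is shown beside it.

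**Figure D4:**
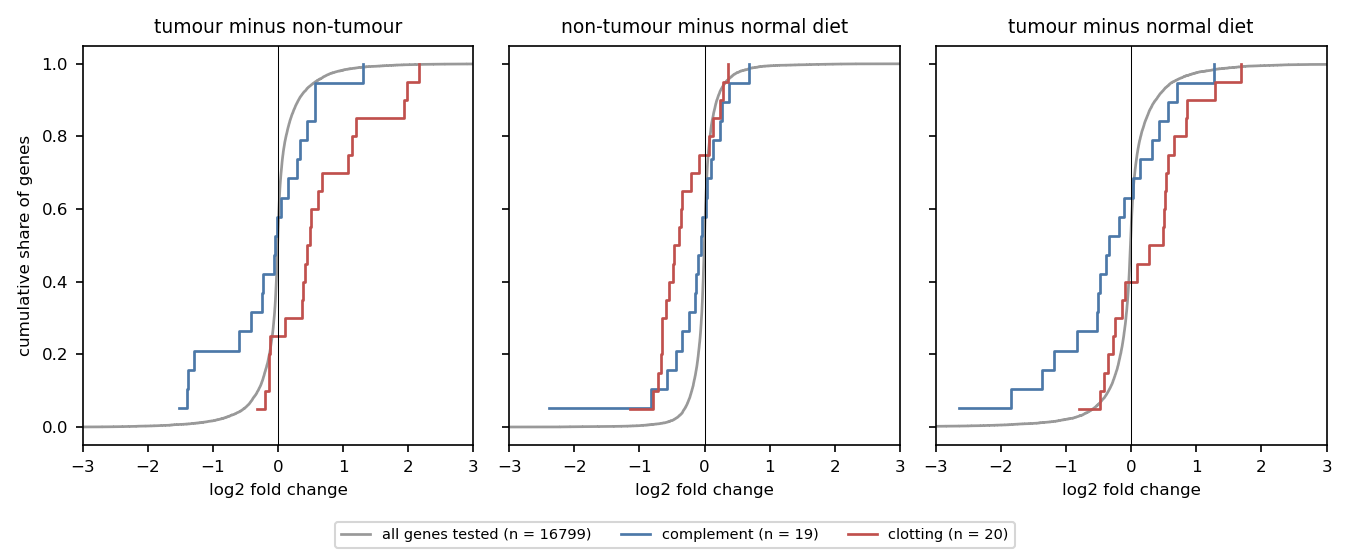
Cumulative share of genes by log2 fold change in the 3 comparisons, for all 16799 genes tested (grey), the 19 complement members (blue) and the 20 clotting members (red). In tumours minus non-tumour tissue the medians are -0.01, -0.05 and 0.46, and the position of bright genes such as these against 0 depends on the scaling (medians of -0.22 and 0.21 for complement and clotting on the deposited scale).

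The plot of cumulative shares also shows that clotting members lie left of the other genes between non-tumour tissue and normal diet liver, with a median of -0.44 (-0.68 on the deposited scale and -0.24 with scaling to the same median). Complement members had medians of -0.05, -0.34 and 0.10 under the same 3 scalings, so their direction turns with the scaling. In tumours minus normal diet liver complement members had a median of -0.34 (-0.74 on the deposited scale), and clotting members 0.38 (-0.10 on the deposited scale).

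Other genes of the cascades were read from lists of complement genes (25 measured) and of clotting and fibrinolysis genes (38 measured) that hold none of the members. In tumours against non-tumour tissue 2 of the other complement genes rose and 9 fell (1 and 9 with mouse as a block). That is 8% and 36%, where 12% of all genes tested rose and 13.4% fell, and 20.4% and 23.2% of the bright genes. Clu, clusterin, a fluid-phase inhibitor of the terminal complex, was the larger of the rises (7558 ± 1453 to 11809.6 ± 1489, 0.95 ± 0.11, adjusted p 0.00179). The other was that of Itgam, a very dim gene, at 1.8, 1.5 and 1.8 in non-tumour tissue and 3.5, 4.8 and 3.6 in tumours. Its call (0.07 ± 0.02, adjusted p 0.0486) was not made with mouse as a block (0.162). Itgam is also counted among the rises against normal diet liver below, though normal diet array 120 had no value for it. Among those that fell were the collectin Colec10, which also feeds the lectin pathway (-0.62 ± 0.14, adjusted p 0.0203), the ficolin Fcna of the same pathway (-0.96 ± 0.22, adjusted p 0.0221), the pore inhibitor Cd59a (-0.88 ± 0.22, adjusted p 0.0283) and Vsig4, a complement receptor of Kupffer cells (-0.92 ± 0.12, adjusted p 0.00249). Vsig4 and Clu were called under every scaling and without each array, while Fcna, Colec10 and Cd59a were lost without single arrays (adjusted p up to 0.0701, 0.0652 and 0.0844, tumour arrays 117 and 1 and non-tumour array 117 in each case). Between non-tumour tissue and normal diet liver 0 rose and 2 fell (0% and 8%, against 1.81% and 2.03% of all genes tested). C1ra, a protease of C1, was at 1921 and 1921 in normal diet liver, at 920.1, 971 and 971 in non-tumour tissue and at 665, 545 and 663 in tumours, the groups did not overlap, and it fell from normal diet liver to non-tumour tissue (log2 difference -0.74 ± 0.08, adjusted p 0.00806). The regulator Susd4 fell as well (-1.08 ± 0.13, adjusted p 0.0116). Without normal diet array 120 neither was called, and C1ra was lost without normal diet array 117 too (adjusted p up to 0.0715 for C1ra, 0.0569 for Susd4). In tumours against normal diet liver 4 rose and 5 fell (16% and 20%, near the 12.9% and 15% of all genes tested and the 21.2% and 22.9% of the bright genes). C1ra (-1.06 ± 0.08, adjusted p 0.000435), Fcna (-1.66 ± 0.25, adjusted p 0.00421) and Susd4 (-1.54 ± 0.13, adjusted p 0.000592) were among the latter. Clu rose there (1.34 ± 0.12, adjusted p 0.00072), and so did C1qb, a chain of C1q that macrophages make (0.90 ± 0.24, adjusted p 0.0357), though not on the deposited scale (0.63, adjusted p 0.0521) nor on leaving out either normal diet array or the non-tumour or tumour array of mouse 117 (up to 0.167). On the deposited scale the counts in the 3 comparisons were 1 and 10, 2 and 2, and 3 and 8.

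Of the other clotting and fibrinolysis genes 15 rose and 4 fell in tumours against non-tumour tissue (15 and 2 with mouse as a block). That is 39.5% and 10.5%, where 12% of all genes tested rose and 13.4% fell, and 20.4% and 23.2% of the bright genes. The largest rises were those of Hgfac, a protease related to factor XII (518 ± 28.9 to 1421 ± 271, 1.64 ± 0.10, adjusted p 0.000365), of Kng2, and of Plat, tissue plasminogen activator, which went from 6.90 ± 0.361 to 111 ± 42.3 (1.61 ± 0.16, adjusted p 0.00122). Pzp, a broad protease inhibitor of plasma (1.27 ± 0.11, adjusted p 0.000762), and Serpina1e, an alpha-1-antitrypsin gene (1.08 ± 0.18, adjusted p 0.00657), followed. These 5 were called under every scaling and without each array. Plat was dim in the other tissues, listed at 2.7 on normal diet array 117 and without a value on normal diet array 120. Between non-tumour tissue and normal diet liver 2 rose and 2 fell (5.26% each, against 1.81% and 2.03% of all genes tested). Anxa2 and S100a10, whose products together form a cell surface receptor for plasminogen, rose (1.97 ± 0.12, adjusted p 0.00179 and 1.14 ± 0.17, adjusted p 0.0218). Serpina1e and Serpina1c fell (-1.43 ± 0.20, adjusted p 0.0184 and -0.55 ± 0.07, adjusted p 0.0141), and S100a10 was not called on the deposited scale (0.89, adjusted p 0.0558). Of these 4 only Anxa2 was called when either normal diet array or non-tumour array 117 was left out (adjusted p up to 0.137 for S100a10, 0.115 for Serpina1e and 0.1 for Serpina1c). The Serpina1 genes are near copies, and their probes may read each other's RNA. In tumours against normal diet liver 12 rose and 4 fell (31.6% and 10.5%, against 12.9% and 15% of all genes tested and 21.2% and 22.9% of the bright genes). The rises were led by Anxa2 (371 ± 3.04 to 2489.9 ± 409, 2.98 ± 0.12, adjusted p 6.83e-05), with the fibrinogen-like Fgl1 among them (1.55 ± 0.31, adjusted p 0.0131). Fgl1 was not called on the deposited scale (1.10, adjusted p 0.0513) or without normal diet array 120. On the deposited scale the counts in the 3 comparisons were 13 and 5, 1 and 5, and 10 and 7.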

How the data were processed

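The authors deposited a scanner table for each array and a table of normalized intensity. How the latter was made is not given in the sources used here. Set against the scanner tables, its values equal the median of a spot less the mean of the blank spots, divided by 1 factor per array, with no value for probes near the blanks. From the scanner medians, normexp with the blank spots (offset 50), quantile normalization and log2 were applied, and limma 3.58.1 in R 4.3.3 fitted the 3 groups with empirical Bayes, adjusting by Benjamini-Hochberg over 16799 genes, those with a deposited value throughout at least 1 group. The code was tested on simulated data. Members, role groups, other pathway lists, markers and motifs were chosen with earlier results of these data known. Array values are given for the called members with the largest changes of their role group and for members of 1 complex. Up to 5 called genes are named per other list and comparison, and Itgam in addition. The alternatives were other backgrounds, scalings, offsets, filters and probe rules, the groups compared alone, mouse as a block, and each array left out. Per the labels, a mouse number shared by a tumour and a non-tumour array marks 1 liver. Their deviations from group means correlated at 0.442, 0.148 and 0.167 within mice 117, 186 and 1, and at -0.274 to 0.028 between mice.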

Additional observations from a re-analysis of the deposited data

How the results depend on the processing

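Counts of members are given as those that rose and those that fell. The arrays' own local background left 1 and 0 in tumours against non-tumour tissue, 0 and 1 in non-tumour tissue against normal diet liver and 2 and 2 in tumours against normal diet liver, and under it the fold changes of 9, 6 and 7 of the 39 members changed sign. Of those called with the blank spots these were F12 (-0.16), Fgg (-0.42) and Plg (-1.05) in the first and C8a (0.19) and F7 (0.15) in the third. The deposited values gave 6 and 9, 0 and 13, and 3 and 19. Scaling to the same median gave 7 and 9, 2 and 3, and 8 and 10. The same scaling before the offset, chosen after seeing the data, gave 6 and 8, 0 and 11, and 3 and 18. Leaving out 1 array at a time gave 10 to 12 and 5 to 6, 0 and 1 to 7, and 5 to 9 and 4 to 12. With the replicate block 15 and 6 members were called between the tissues of 1 liver, and 1649 and 1846 genes. The other alternatives moved no count of members by over 1.5 times. The number of arrays, with 2 in the normal diet group, limits the precision, and the choice of scaling limits the direction of bright genes.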
